A study of Rattus norvegicus with 24 samples.

Results

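The antioxidant enzymes described here were the cytosolic superoxide dismutase Sod1 (ENSRNOG00000002115), the mitochondrial superoxide dismutase Sod2 (ENSRNOG00000019048), the catalase Cat (ENSRNOG00000008364), the quinone reductase Nqo1 (ENSRNOG00000012772) and the inducible heme oxygenase Hmox1 (ENSRNOG00000014117). These 5 genes, of 32754 counted, were chosen by name and selected on values of the same samples, namely their level and their differences with LPS and with oxygen, so those differences are given as a description. Counts of the enzymes past the threshold across all genes are set beside the share of all genes past it, and nothing is read from them. All 5 were among the 12860 genes that passed the filter on low counts. RNA was sequenced from brain microglia of male and female Sprague Dawley rat pups at postnatal day 9. The cells were isolated with magnetic beads against CD11b/c, surface proteins that other myeloid cells carry too. From postnatal day 1 the pups were kept for 8 days in normoxia (Nx, 21% O2) or in intermittent hypoxia (IH, 2 min cycles between 10.5% and 21% O2 for 8 h a day). At 16 h after the last exposure they received an intraperitoneal injection of vehicle (saline in the labels) or of lipopolysaccharide (LPS, a glycolipid of the outer membrane of bacteria that sets off inflammation), and microglia were isolated 3 h later. The design text gives the LPS dose as 0.1 mg/kg, while the sample labels give the same figure per mL. Sex, oxygen and injection gave 8 groups of 3 samples (male or female, Nx or IH, vehicle or LPS), 24 samples in all.

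Superoxide is made by mitochondria and, in phagocytes such as microglia, by an oxidase that is used against microbes. Superoxide dismutases turn it into hydrogen peroxide, which catalase breaks down to water and oxygen in peroxisomes. Nqo1 reduces quinones without leaving a radical, and Hmox1 opens the heme ring to give biliverdin, carbon monoxide and iron. Nqo1 and Hmox1 are classic targets of the transcription factor Nrf2, which binds antioxidant response elements, whereas Sod2 is a known target of NF-κB, the factor that LPS activates through its receptor.

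The sequence just upstream of the start is shown for Sod2 and Cat, the 2 enzymes whose LPS and vehicle samples did not overlap in Nx, since they differed with LPS in opposite directions. The windows are RefSeq sequence of the build GRCr8, at chr1:50050169-50050418 on the minus strand for Sod2 and at chr3:110329527-110329776 on the minus strand for Cat, and they are printed in the direction of the gene. Capitals mark the antioxidant response element core (TGAC, any 3 bases, GC), read on the strand opposite to the gene.
Sod2: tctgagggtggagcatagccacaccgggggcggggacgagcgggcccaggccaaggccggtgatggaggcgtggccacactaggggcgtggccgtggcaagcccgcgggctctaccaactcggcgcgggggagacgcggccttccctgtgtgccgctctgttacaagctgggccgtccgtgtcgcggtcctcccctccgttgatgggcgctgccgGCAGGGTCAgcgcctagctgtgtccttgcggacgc
Cat: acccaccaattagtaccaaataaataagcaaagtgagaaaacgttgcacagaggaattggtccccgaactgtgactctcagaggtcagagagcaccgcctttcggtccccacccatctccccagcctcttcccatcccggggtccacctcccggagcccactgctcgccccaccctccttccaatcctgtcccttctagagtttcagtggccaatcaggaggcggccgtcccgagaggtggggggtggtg
Windows of 300 bases, from 250 before the start to 50 after it, were held for 4 of the 5 enzymes, all but Hmox1, and 3 motifs were searched on both strands. The Sod2 window held the antioxidant response element core once, starting 35 bases before the start, and 12.1% of 33469 rat promoters held it. The NF-κB consensus was in none of the 4 windows and in 7.51% of all promoters. Sequence outside the windows was not searched, so a motif missing from a window may stand elsewhere. The hypoxia response element core (ACGTG) was in the Sod1 window once, 123 bases before the start, and in 19.3% of all promoters. No motif was found in the Cat and Nqo1 windows, which says only that these letters do not stand there.

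Counts were scaled to the library size (CPM) with TMM factors, which correct for differences in the composition of the libraries. The totals on genes ran from 6624453 to 8548714 reads per library. Over the 24 samples the counts behind the values were 555 to 1220 for Sod1, 214 to 1759 for Sod2, 382 to 647 for Cat, 34 to 90 for Nqo1 and 2188 to 4514 for Hmox1, so that Nqo1 was counted least precisely. One library, male Nx replicate 2, stood apart. It held the highest Sod1 value and had 23.4% of its counted reads aligned to more than 1 place, against 11.7% to 15.8% in the other libraries, and it enters every comparison with the Nx vehicle samples. Microglial identity was not checked against marker genes here, because the names of those genes are not paired with identifiers in the tables used. In bulk RNA, fewer cells of a type and less RNA per cell cannot be told apart.

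Sod2 was the enzyme that differed most with LPS, and in every comparison of sex and oxygen it was about 5 to 6 times higher after LPS than after vehicle. In Nx males it was at 32.0, 37.1 and 28.7 CPM with vehicle and at 247, 125 and 233 CPM with LPS. In Nx females it was at 33.8, 35.4 and 26.3 CPM with vehicle and at 171, 215 and 190.1 CPM with LPS. Every LPS sample lay above every vehicle sample, and male Nx LPS replicate 2 was the lowest of the 6 LPS samples. In IH males Sod2 was at 32.1, 28.0 and 37.2 CPM with vehicle and at 222, 148 and 138 CPM with LPS. In IH females it was at 31.0, 32.8 and 33.3 CPM with vehicle and at 191, 116 and 184 CPM with LPS. The 12 vehicle samples thus lay within 26.3 to 37.2 CPM, while the 12 LPS samples spread from 116 to 247 CPM. Over both sexes Sod2 averaged 32.2 ± 4.12 CPM (SD, n = 6) in Nx with vehicle and 197 ± 44.9 CPM (SD, n = 6) in Nx with LPS, and the fitted log2 fold change was 2.61 (SE 0.17, 95% confidence interval 2.26 to 2.96), a fold of 6.11. In IH it averaged 32.4 ± 3.01 CPM (SD, n = 6) with vehicle and 166.5 ± 39.4 CPM (SD, n = 6) with LPS, and the log2 fold change was 2.36 (SE 0.17, interval 2.01 to 2.71), a fold of 5.14. Of the 12860 genes, 117 had a larger positive log2 fold change with LPS than Sod2 in Nx and 104 in IH. By group, the log2 fold change of Sod2 was 2.63 in Nx males, 2.59 in Nx females, 2.39 in IH males and 2.34 in IH females. RefSeq lists a Sod2 pseudogene (Sod2-ps1) in the rat, and reads that aligned to more than 1 place were not counted, so reads shared with it would be lost from these values.

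**Figure D1:**
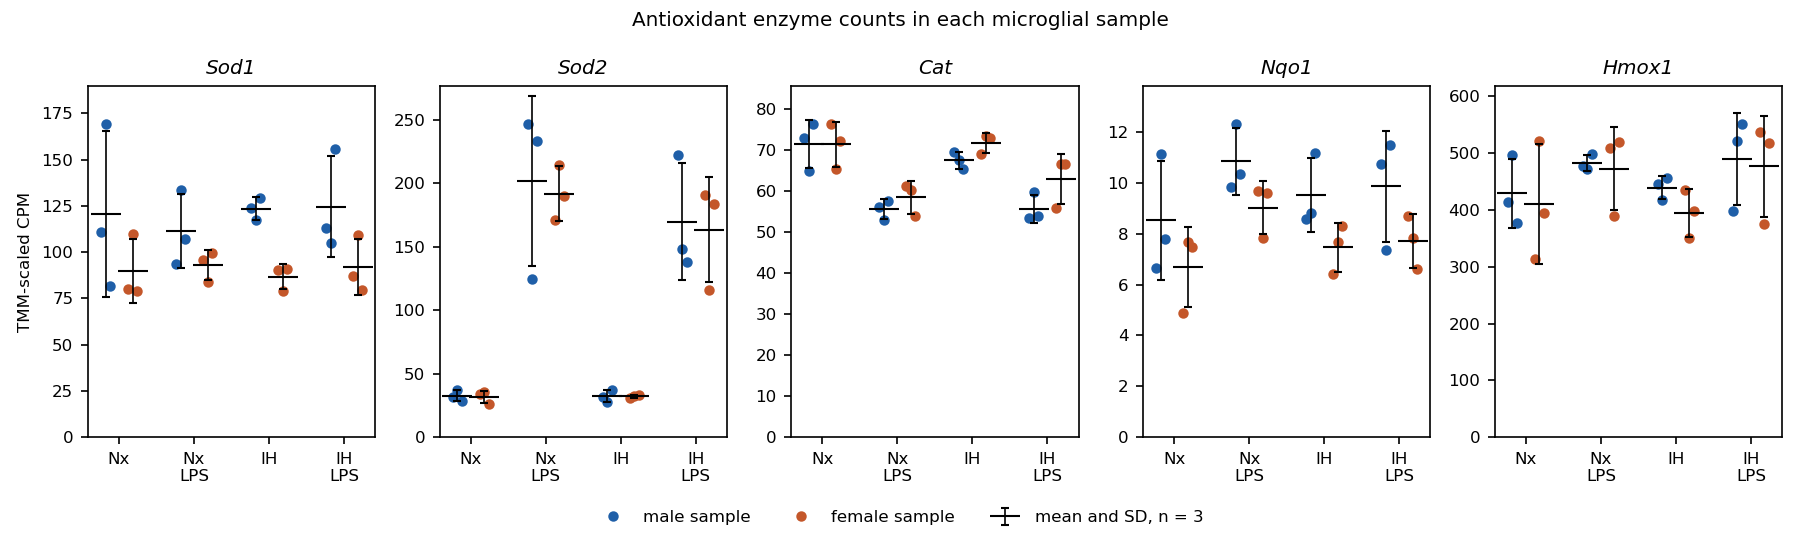
TMM-scaled CPM (each panel from 0) of the 5 enzymes in each of the 24 samples, with vehicle or LPS in Nx and IH. Blue points are male and orange points female samples, and black lines give the mean and SD of each group of 3. Sod2 lies at 26.3 to 37.2 CPM in the vehicle samples and at 116 to 247 CPM in the LPS samples, Cat is lower with LPS in both sexes, and male points of Sod1 and Nqo1 tend to lie above female ones.

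Cat differed with LPS in the other direction and by much less. In Nx males it was at 73.0, 65.0 and 76.3 CPM with vehicle and at 56.0, 52.9 and 57.6 CPM with LPS. In Nx females it was at 76.4, 65.4 and 72.2 CPM with vehicle and at 61.3, 60.3 and 53.8 CPM with LPS. The highest Nx LPS sample, at 61.3 CPM, lay below the lowest Nx vehicle sample, at 65.0 CPM. In IH males Cat was at 69.5, 67.6 and 65.4 CPM with vehicle and at 53.3, 59.6 and 54.0 CPM with LPS. In IH females it was at 69.0, 73.3 and 72.8 CPM with vehicle and at 56.0, 66.6 and 66.5 CPM with LPS. Here the groups overlapped, since female IH LPS replicates 2 and 3 lay above the lowest IH vehicle sample, a male at 65.4 CPM. The log2 fold change was -0.33 (SE 0.08, interval -0.49 to -0.16) in Nx, a fold of 0.798, and -0.23 (SE 0.08, interval -0.39 to -0.07) in IH, a fold of 0.851. Cat was also a gene with little spread between replicates. Its SD within groups was 0.10 on the log2 scale, and 0.692% of the genes tested had a smaller one, against 36.6% for Sod1, 44.5% for Sod2, 33.7% for Nqo1 and 24.4% for Hmox1. Its difference with LPS, small beside that of Sod2, was thus more than 2 times the SD between its replicates, and the log2 fold change was larger in size for 2903 genes that were lower with LPS in Nx.

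Sod1, which acts on the same substrate as Sod2, was at like levels with vehicle and LPS. Over both sexes it averaged 105 ± 34.7 CPM (SD, n = 6) in Nx with vehicle and 102 ± 17.1 CPM (SD, n = 6) in Nx with LPS, and the log2 fold change was -0.03 (SE 0.15, interval -0.35 to 0.29). In IH it averaged 105 ± 21.0 CPM (SD, n = 6) with vehicle and 108 ± 26.6 CPM (SD, n = 6) with LPS, with a log2 fold change of 0.05 (SE 0.15, interval -0.27 to 0.36). Without male Nx replicate 2, which held the highest Sod1 value, the log2 fold change in Nx was 0.13.

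The Nrf2 targets differed less with LPS than Sod2 did. Nqo1 was at 6.65, 11.1 and 7.78 CPM in Nx males with vehicle and at 9.83, 12.3 and 10.4 CPM with LPS. In Nx females it was at 4.87, 7.67 and 7.49 CPM with vehicle and at 9.66, 7.81 and 9.59 CPM with LPS. The groups overlapped in males through male Nx replicate 2. The log2 fold change was 0.39 (SE 0.17, interval 0.03 to 0.74) in Nx and 0.51 without male Nx replicate 2. In IH, where Nqo1 ranged from 6.40 to 11.2 CPM with vehicle and from 6.61 to 11.5 CPM with LPS, it was 0.05 (SE 0.17, interval -0.30 to 0.40). Hmox1 ranged from 313 to 522 CPM in Nx with vehicle, with a median of 405 CPM, and from 389 to 520.3 CPM with LPS, with a median of 488 CPM. In IH it ranged from 351 to 456 CPM with vehicle, with a median of 426 CPM, and from 375 to 552 CPM with LPS, with a median of 519 CPM. The Hmox1 groups overlapped in both, and the log2 fold changes were 0.19 (SE 0.13, interval -0.08 to 0.45) in Nx, with 0.11 without female Nx replicate 1 and 0.29 without female Nx replicate 2, and 0.21 (SE 0.13, interval -0.05 to 0.48) in IH.

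Across all genes, edgeR's quasi-likelihood test called 2070 of 12860 genes (16.1%) with LPS in Nx and 921 genes (7.16%) with LPS in IH at a false discovery rate (FDR, Benjamini-Hochberg) under 0.05. Without male IH LPS replicate 1 the IH number was 602, and without male IH LPS replicate 3 it was 1375. The Nx number was 1437 without male Nx LPS replicate 3 and 2552 without male Nx LPS replicate 2. Among the enzymes, 2 of 5 were called in Nx, Sod2 higher and Cat lower, and 1 of 5 in IH, Sod2. Genes whose 6 LPS samples did not overlap the 6 vehicle samples made up 6.97% in Nx, Sod2 and Cat among them, and 3.68% in IH, Sod2 among them. Without male Nx replicate 2, Nqo1 was called in Nx as well, which made 3 of 5, beside 2088 of all 12860 genes. Since the enzymes were chosen with these differences known, nothing is read from these counts. The difference between the LPS effects in IH and in Nx was -0.25 (SE 0.24) for Sod2, 0.09 (SE 0.11) for Cat, -0.34 (SE 0.24) for Nqo1, 0.08 (SE 0.21) for Sod1 and 0.03 (SE 0.18) for Hmox1 on the log2 scale. For Sod1 it was -0.08 without male Nx replicate 2, and for Sod2 it was -0.38 without male Nx LPS replicate 2 and -0.15 without female IH LPS replicate 2. That comparison called 0% of the genes, and 182 genes had an unadjusted p under 0.05. DESeq2 also called 0.

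**Figure D2:**
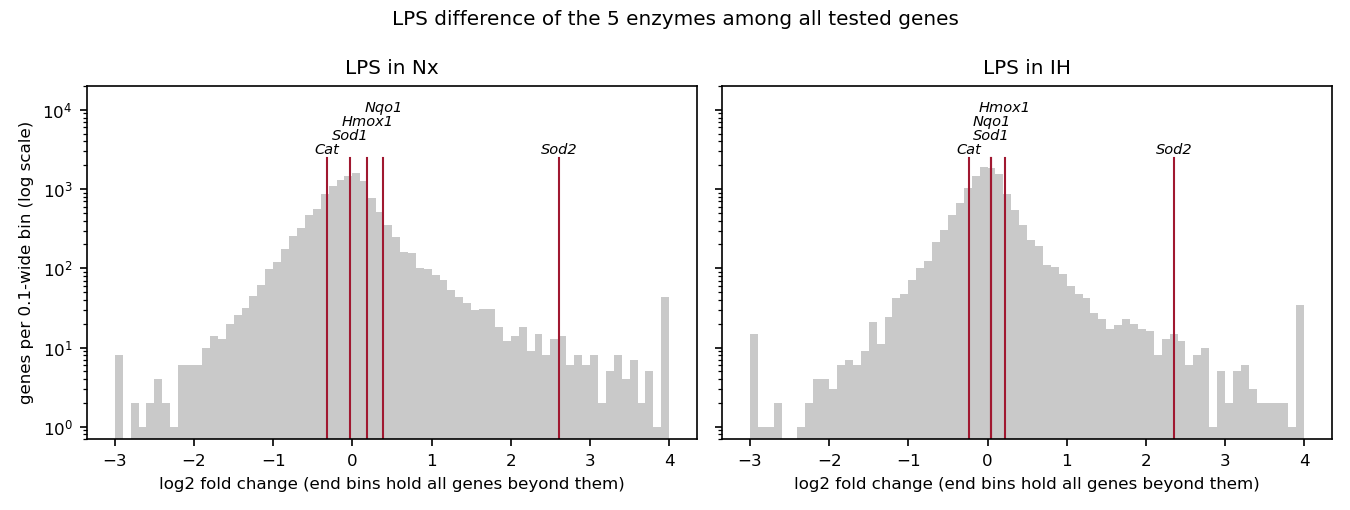
Histogram of the log2 fold change with LPS over the 12860 tested genes in Nx (left) and IH (right), with the number of genes per bin on a log axis, and red lines at the 5 enzymes. Sod2, at 2.61 and 2.36, lies in the right tail with 117 and 104 genes beyond it, while the other 4 enzymes lie between -0.33 and 0.39.

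The differences of the 5 enzymes with IH were small beside those of Sod2 with LPS. With vehicle, the log2 fold changes of IH against Nx were -0.01 for Sod1, 0.01 for Sod2, -0.04 for Cat, 0.16 for Nqo1 and -0.01 for Hmox1, and the intervals ran at most from -0.34 to 0.52. Without male Nx replicate 2 the Sod1 value was 0.16 and the Nqo1 value 0.28, without female Nx replicate 1 the Nqo1 value was 0.07, and without male Nx replicate 3 the Sod1 value was -0.11. With LPS they were 0.07 for Sod1, -0.24 for Sod2, 0.06 for Cat, -0.18 for Nqo1 and 0.02 for Hmox1. Single samples moved these values, that of Sod2 to -0.37 without male Nx LPS replicate 2 and -0.14 without female IH LPS replicate 2, and that of Nqo1 to -0.09 without male IH LPS replicate 2. The Sod2 value with all samples had the interval -0.58 to 0.10, so that with LPS a Sod2 level in IH between 0.668 and 1.07 times that in Nx is within the error. The Cat intervals were the narrowest, -0.20 to 0.12 with vehicle and -0.11 to 0.22 with LPS. With single samples left out, the Cat value ran from -0.07 to -0.01 with vehicle and from 0.03 to 0.09 with LPS. Across all genes, edgeR called 0% with vehicle and 0% with LPS, the 5 enzymes included (130 and 378 genes had an unadjusted p under 0.05, and DESeq2 called 0), and nothing is read from this for enzymes chosen with these differences known. The 6 IH and 6 Nx samples overlapped for every enzyme, as for nearly all genes, since 0.00778% of genes with vehicle and 0.0389% with LPS did not overlap.

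**Figure D3:**
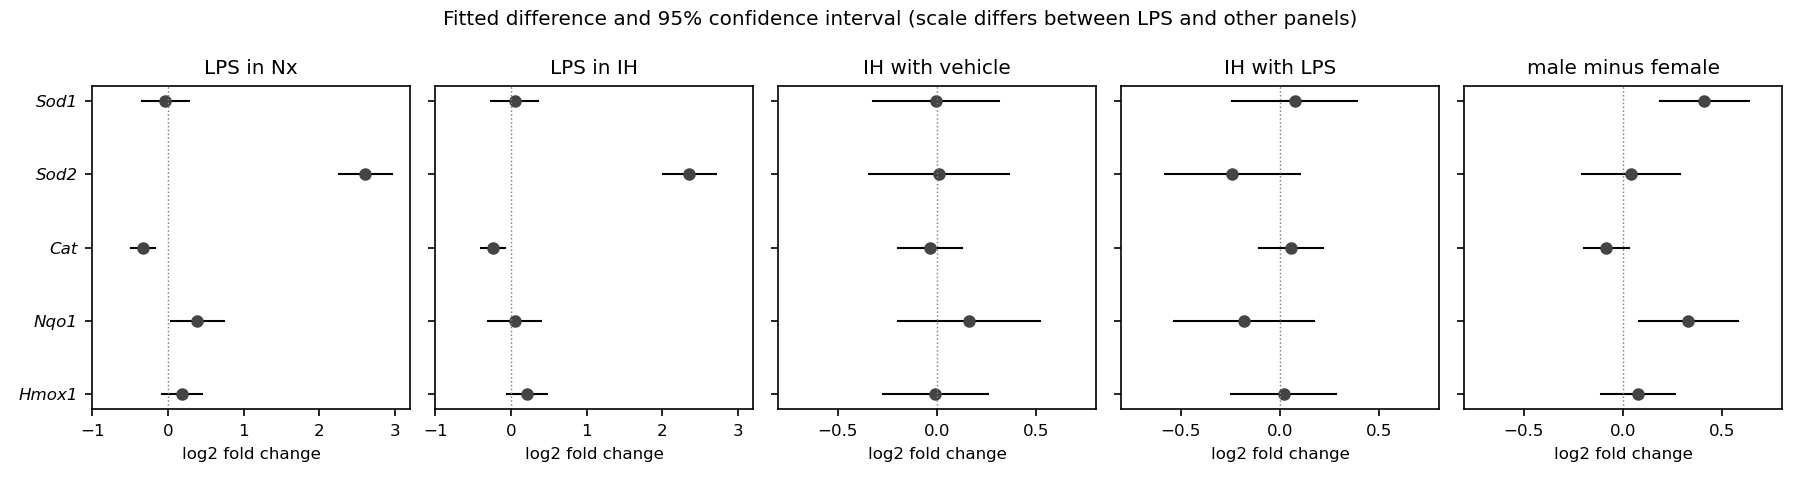
Fitted log2 fold change (points) and 95% confidence interval (lines) of each enzyme with LPS in Nx and IH, with IH under vehicle and LPS, and between the sexes. The horizontal scale of the LPS panels is wider than that of the others. The Sod2 points lie at 2.61 and 2.36 and the Cat points at -0.33 and -0.23 in the LPS panels, all points of the IH panels lie between -0.24 and 0.16, and those of Sod1 and Nqo1 lie at 0.41 and 0.33 between the sexes.

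The sexes were compared over all conditions. This difference is not among those by which the enzymes were chosen, but their levels in all 8 groups, which hold both sexes, were known, so the p-values are not fully independent of the choice. Sod1 was at 111, 169 and 81.7 CPM in Nx males with vehicle and at 80.3, 109.6 and 79.2 CPM in Nx females. With LPS in Nx it was at 93.6, 133 and 107 CPM in males and at 95.5, 83.8 and 99.5 CPM in females. In IH with vehicle it was at 124, 117 and 129 CPM in males and at 90.1, 79.0 and 90.9 CPM in females. In IH with LPS it was at 113, 105 and 156 CPM in males and at 87.1, 109 and 79.7 CPM in females. The male mean was the higher in each of the 4 conditions, by a log2 difference of 0.43 and 0.26 in Nx with vehicle and LPS and of 0.51 and 0.44 in IH. Over the 12 males Sod1 averaged 120.0 ± 24.7 CPM (SD, n = 12) and over the 12 females 90.3 ± 11.1 CPM (SD, n = 12), a log2 difference of 0.41 (SE 0.11, interval 0.19 to 0.63) that missed the threshold (edgeR, adjusted p = 0.0586). At 0.40 to 0.41 it passed in edgeR with the replicate number as a block (adjusted p = 0.0494), with sex as an additive term (0.0331) and by the likelihood ratio test (0.0194), and in DESeq2 (adjusted p = 0.0168), so the call depends on the fit. In the same order, these fits called 330, 488, 715 and 882 of all genes. The Sod1 value passed in 3 of 24 fits that left out 1 sample, at 0.46 without male Nx replicate 3, 0.45 without female Nx replicate 2 and 0.44 without male IH LPS replicate 2 (adjusted p = 0.017, 0.0223 and 0.0494 from the same edgeR test). Of all genes, these 3 fits called 968, 1520 and 247, against 51 with all samples. The Sod1 value was lowest, at 0.33 (adjusted p = 0.112 from edgeR), without male Nx replicate 2. Nqo1 was higher in males by 0.33 (SE 0.12, interval 0.08 to 0.58, adjusted p = 0.118 from edgeR), at 9.68 ± 1.82 CPM (SD, n = 12) against 7.72 ± 1.34 CPM (SD, n = 12), which did not pass either. The differences were 0.04 (interval -0.21 to 0.29) for Sod2, -0.09 (interval -0.20 to 0.03) for Cat and 0.07 (interval -0.11 to 0.26) for Hmox1. That of Hmox1 was 0.03 without female Nx replicate 1 and 0.13 without female Nx replicate 2. The test between the sexes called 0.397% of all genes (51 genes) and none of the 5 enzymes, and the number of genes ran from 11 without male Nx LPS replicate 2 to 1520 without female Nx replicate 2. With all samples, 3297 genes (25.6%) had an unadjusted p under 0.05, Sod1 and Nqo1 among them.

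The sexes were also compared in their effects. The effect of LPS on Sod2 was 2.51 (SE 0.17) in males and 2.46 (SE 0.17) in females on the log2 scale, a difference of 0.04 with the interval -0.45 to 0.53. For Cat it was -0.32 (SE 0.08) in males and -0.24 (SE 0.08) in females, a difference of -0.08 with the interval -0.31 to 0.14. The effect of IH on Sod1 was 0.10 (SE 0.15) in males and -0.03 (SE 0.15) in females, a difference of 0.13 with the interval -0.32 to 0.58, which was 0.29 without male Nx replicate 2 and 0.02 without male Nx replicate 3. None of the 5 enzymes passed in the difference between the sexes of the effect of LPS or of IH (adjusted p = 1 for each, edgeR). The tests called 0% of all genes in both, with 169 and 88 genes at an unadjusted p under 0.05, and DESeq2 called 0.

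A measure of the libraries moved with Sod1. Reads that aligned to a single place outside every annotated exon of the counted strand made up 14.7% to 21.2% of the counted reads. After the mean of each group was subtracted, log2 Sod1 and the log2 of this share had Pearson's r = -0.90 and Spearman's rho = -0.857 over the 24 samples (permutation within groups, p = 6.0e-05 for each, adjusted p = 0.0009 over 15 relations of the 5 enzymes with 3 library measures). Without the 2 samples farthest from the median of the share, r was -0.87. Of the 12860 genes, 9 had a larger r in size than Sod1. With the share taken of the uniquely aligned reads alone, the r of Sod1 was -0.82, and 188 genes had a larger one in size. The share was lower in males, at 16.8% ± 1.42 (SD, n = 12) against 18.1% ± 1.72 (SD, n = 12) in females. With the log2 of the share as a covariate, chosen after seeing the data, the Sod1 difference between the sexes was 0.21 (SE 0.06, adjusted p = 0.266 from edgeR) and that of Nqo1 was 0.22 (SE 0.12, adjusted p = 0.509). That of Hmox1 was 0.01 (SE 0.09). With the share of the uniquely aligned reads, the Sod1 value was 0.27 (SE 0.07, adjusted p = 0.13 from edgeR). The effects of LPS on Sod2 kept their size with the covariate, at 2.62 in Nx and 2.39 in IH, and those on Cat were -0.31 and -0.21. Those on Sod1 were -0.09 in Nx and -0.13 in IH, and with the share of the uniquely aligned reads -0.13 and -0.12, so that the sign in IH turned from that of the value of 0.05 without a covariate. The effect on Nqo1 in IH turned to -0.04 and -0.03. None of the other relations passed, and the r of the share was 0.21 with Sod2, 0.42 with Cat, -0.51 with Nqo1 and -0.34 with Hmox1. The r of Nqo1 was exceeded in size by 33.8% of all genes.

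**Figure D4:**
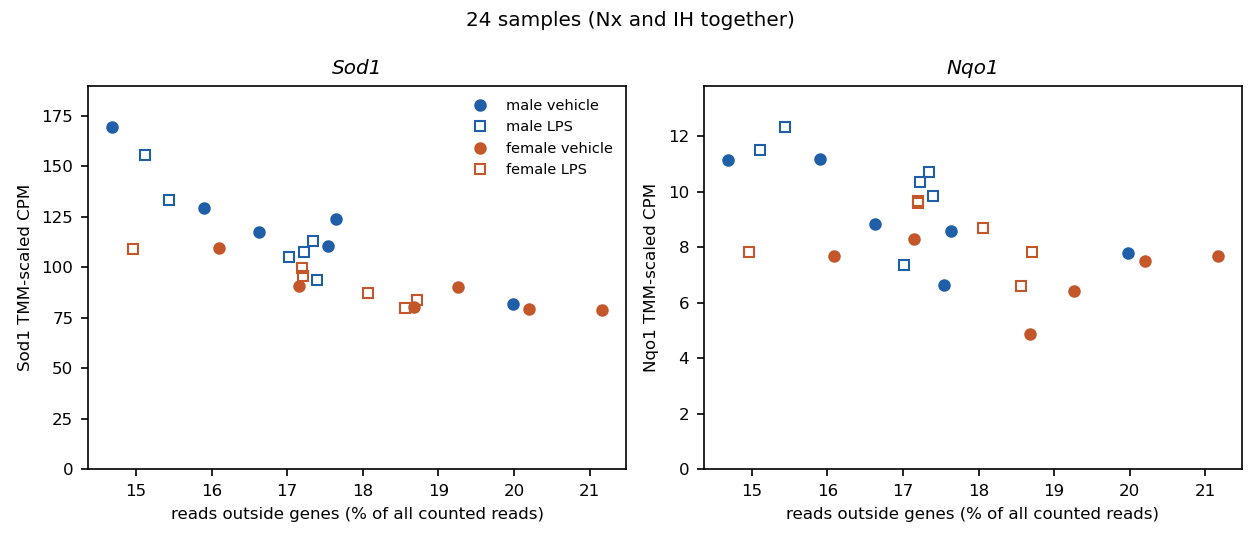
Sod1 (left) and Nqo1 (right), in TMM-scaled CPM from 0, against the share of counted reads outside annotated exons (percent) in the 24 samples. Blue is male, orange female, filled points are vehicle and open squares LPS samples. Sod1 is lower where the share is higher, with r = -0.90 after subtraction of the group means, while the relation of Nqo1, at r = -0.51, did not pass the test.

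Among the LPS samples the enzymes were compared with the strength of the inflammatory response, taken as the mean log2 CPM of 12 NF-κB target genes (Il1a, Birc3, Csf3, Cxcl1, Cxcl10, Ptgs2, Irf1, Sele, Cxcl9, Cd83, Icam1 and Il6). These are the array targets that the study pairs with identifiers, and it lists them, from these same libraries, as lower with IH in LPS-treated females. The mean is therefore not independent of that direction, and low values in female IH LPS samples are no finding. The mean was 1.69 to 2.19 in the 12 vehicle samples and 3.19 to 6.55 in the 12 LPS samples. The lowest were male IH LPS replicate 3 at 3.19, male Nx LPS replicate 2 at 3.52, and female IH LPS replicates 1 and 2 at 4.35 and 4.38. The other 8 LPS samples lay from 5.44 to 6.55. Cxcl10, an interferon-responsive chemokine, was at 23.1 and 123 CPM in the first pair and at 440.4 to 3192 CPM in the other LPS samples, against at most 14.1 CPM with vehicle. Sod2 was at 138 and 125 CPM in that pair, still above the 28.0 to 37.2 CPM of the 6 male vehicle samples.

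Over the 12 LPS samples, log2 Sod2 and this mean had r = 0.74 (permutation p = 0.00676, adjusted p = 0.0338 over 5 relations) and rho = 0.685 (permutation p = 0.0168, adjusted p = 0.084). Without the 2 samples farthest from the median, r was 0.60. This pooled value includes the difference between IH and Nx that the choice of targets used. The share of all genes with as large an r was not counted, so the value is not shown to be particular to Sod2. Within oxygen groups, r was 0.95 over the 6 Nx samples (exact permutation p = 0.00833) and 0.41 over the 6 IH samples (exact permutation p = 0.397), and within sexes it was 0.79 in males and 0.64 in females (exact permutation p = 0.0778 and 0.211). The sign was positive in each split, and the difference between Nx and IH was not tested. These tests exchanged samples freely, also between the sexes or oxygen groups that a split holds, and the p of single splits is not adjusted. Log2 Sod1 gave r = -0.66 (permutation p = 0.0188, adjusted p = 0.0469), which was -0.03 without the 2 farthest samples, so this relation rests on those samples. Within splits it was -0.96 in males and -0.34 in females (exact permutation p = 0.00556 and 0.489), and -0.86 in Nx and -0.56 in IH (exact permutation p = 0.111 and 0.25). The r values of Cat, Nqo1 and Hmox1 were 0.21, -0.38 and -0.15 (permutation, adjusted p = 0.635, 0.358 and 0.635).

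**Figure D5:**
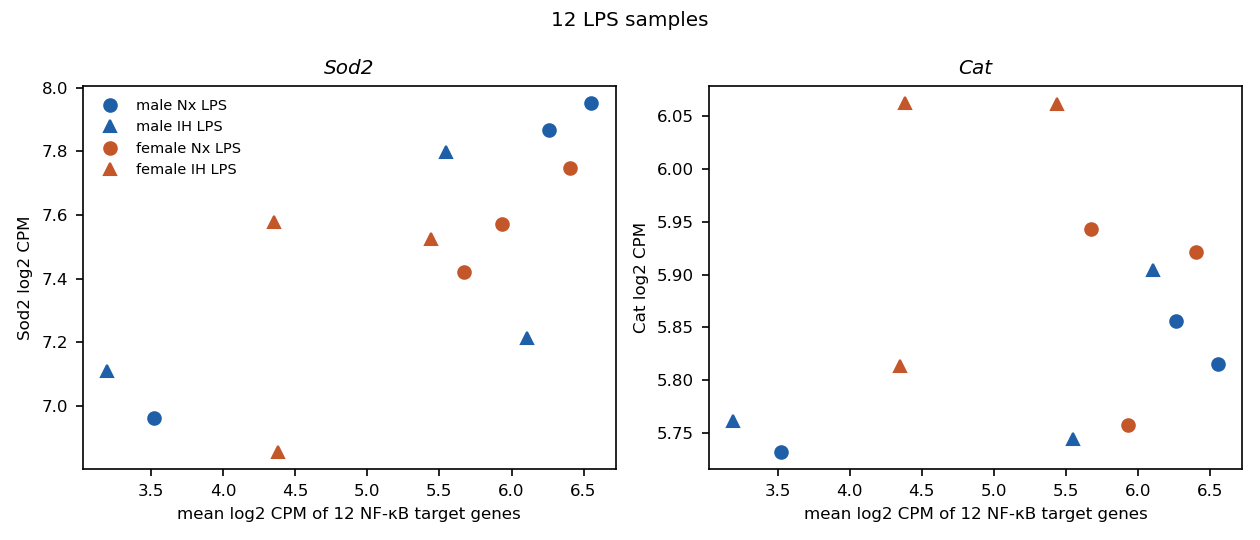
Log2 CPM of Sod2 (left) and Cat (right) in the 12 LPS samples against the mean log2 CPM of the 12 NF-κB target genes, with circles for Nx, triangles for IH, blue for males and orange for females. Sod2 is higher where the targets are higher (r = 0.74), most closely in the Nx circles (r = 0.95), and Cat shows no such relation (r = 0.21). The vertical axes do not start at 0.

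The pattern of Sod2 over the 24 samples was shared with many genes, as a description in which the LPS difference enters. Its log2 CPM had r above 0.9 with 179 genes, and the closest was ENSRNOG00000005871 at 0.983. Of the 12 NF-κB targets, Birc3, an inhibitor of cell death, came closest at 0.967, ranked 8 among all genes, then Cxcl10 at 0.954 and Icam1, an adhesion molecule, at 0.941. The lowest was Il1a at 0.797. After the group means were subtracted no gene had r above 0.9 with Sod2, and the highest was 0.872. Cat, Nqo1 and Hmox1 had no gene above 0.9 over the 24 samples, with highest values of 0.892, 0.881 and 0.877. Sod1 had 44, and 26 after subtraction of the group means, with the share of reads outside exons moving with it as given above. Among the enzymes themselves, after subtraction of the group means, none of 10 pairs passed (permutation within groups, Benjamini-Hochberg). The closest were Cat with Nqo1 at r = -0.67 (rho = -0.665, adjusted permutation p = 0.0616) and Sod1 with Nqo1 at r = 0.63 (rho = 0.622, adjusted permutation p = 0.104).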

How the data were processed

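From stranded mRNA libraries the authors aligned reads with TopHat2 2.1 (build rn6, per the submitters' processing notes), counted uniquely aligned reads per Ensembl gene on the sense strand with HTSeq, and deposited raw whole-number counts for each sample. Rows for reads outside genes, ambiguous reads and reads with several alignments (28.9% to 38.3% of counted reads) were left out of library sizes and tests. No sequencing batch or date is given in the sources used here. The members and lists were chosen with earlier results of these data known.

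Genes that exceeded a CPM of 1 in 3 or more of the 24 samples were kept and TMM-scaled. The edgeR 4.0.16 quasi-likelihood F test (R 4.3.3) was fitted with 8 group means and Benjamini-Hochberg adjustment over 12860 genes. Log2 CPM used a prior count of 2, and intervals are 95%. Permutation tests used 100000 draws, within groups over the 24 samples and unrestricted over the 12 LPS samples, or unrestricted enumeration where called exact, and were two-sided. The script was tested on simulated counts. The series' design text calls the 3 samples of a group biological replicates. No 2 samples of a group agreed within sampling noise.

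Named genes are the 5 members and, by rule, the genes most like them by Pearson correlation, of which the closest to Sod2 is printed. The planned lists of 84 further antioxidant genes and of cell type markers were not analysed here, since no table used here pairs their symbols with Ensembl identifiers, and 0 matched. The planned value for these lists was replaced by the number of the 5 members past the threshold. Alternatives were RLE scaling, no filter, the likelihood ratio test, DESeq2 1.42.0, a replicate block, sex as an additive term, the compared groups alone and each sample left out. Birc3, Cxcl10, Icam1 and Il1a were named after their values were seen, and the relations with library measures and the target mean were chosen after seeing the data.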

Additional observations from a re-analysis of the deposited data

Results flagged for a closer look

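In 20 sets of 6 samples, each enzyme in each of the 4 conditions with the sexes together, the gap between the highest or lowest sample and its neighbour was set against the range of the set (Dixon's test at the 95% level), and chance picks out about 1 in 20 such sets. Sod1 in male Nx replicate 2 stood apart as the highest of the Nx vehicle samples, at 169 CPM, with the other 5 samples at 79.2 to 111 CPM. That library had the lowest share of counted reads outside exons, 14.7%, and the highest share of reads aligned to more than 1 place, 23.4%, while 6 libraries had a lower share outside exons among uniquely aligned reads, where it was at 19.2%, and the part of these shares in its Sod1 value was not tested. Hmox1 in female Nx LPS replicate 2 stood apart as the lowest of the Nx LPS samples, at 389 CPM, with the other 5 samples at 473 to 520.3 CPM. In the same library Sod2 was at 215 CPM, the highest of the 3 female Nx LPS samples.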

How the results depend on the processing

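The number of enzymes past the threshold with LPS in Nx was 2 in the 7 alternatives planned for it other than leaving out a sample, and between 2 and 3 with each sample left out. With LPS in IH it was 1, and became 2, with Cat, under sex as an additive term and under DESeq2, which called 1099 and 1223 genes in all against 921. Between the sexes it was 0, and became 1, with Sod1, under the likelihood ratio test, sex as an additive term, DESeq2 and the replicate block (0.41, 0.41, 0.40 and 0.41 on the log2 scale), and was between 0 and 1 with each sample left out. The cause was not tested. Over all genes, the number between the sexes was 51, against 715, 488, 882 and 330 under the same alternatives, 173 with no filter and 13 with the share of reads outside exons as a covariate, the last chosen after seeing the data. With LPS in IH it was 921, and 1471 with that covariate or 1634 with the share taken of uniquely aligned reads.

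Same-numbered samples are not said to share a litter or day. The correlation of their deviations over 84 pairs ran from -0.57 to 0.49 with a median of 0.07. Such a spread cannot settle whether some same-numbered samples were paired. Apart from that of Sod1 between the sexes, the replicate block changed no enzyme's call.

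Differences near 0 changed sign in some fits. With each sample left out, Sod1 ran from -0.14 to 0.13 with LPS in Nx, -0.05 to 0.10 with LPS in IH, -0.11 to 0.16 with IH under vehicle, -0.02 to 0.15 with IH under LPS and -0.08 to 0.19 in LPS by oxygen. Nqo1 with LPS in IH ran from -0.01 to 0.13, Sod2 with IH under vehicle from -0.05 to 0.06, and Hmox1 from -0.09 to 0.10 with IH under vehicle, -0.04 to 0.09 with IH under LPS and -0.08 to 0.11 in LPS by oxygen. Between the sexes, the male minus female value of Sod2 ran from -0.021 to 0.10. The LPS effect in males minus that in females ran from -0.23 to 0.043 for Sod1, -0.079 to 0.17 for Sod2, -0.11 to 0.080 for Nqo1 and -0.18 to 0.0062 for Hmox1. The IH effect in males minus that in females ran from -0.15 to 0.063 for Sod2, -0.029 to 0.16 for Nqo1 and -0.056 to 0.13 for Hmox1. With the share of counted reads outside exons as a covariate, LPS in IH was -0.13 for Sod1 and -0.04 for Nqo1, LPS by oxygen was -0.04 for Sod1, IH under vehicle was 0.05 for Sod1, -0.0023 for Sod2 and 0.0038 for Hmox1, the difference between the sexes in the LPS effect was 0.0099 for Sod1 and 0.029 for Nqo1, and that in the IH effect 0.0024 for Sod2. With the share of uniquely aligned reads, LPS in IH was -0.12 for Sod1 and -0.03 for Nqo1, IH under vehicle was 0.0084 for Sod1, and the difference between the sexes in the IH effect was 0.035 for Sod2 and -0.0093 for Nqo1. Depth limits Nqo1 most, with 34 to 90 counts per sample.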
